A study of Mus musculus with 6 samples.

Results

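Retinoic acid is made inside cells from vitamin A and binds nuclear receptors that switch genes on. Retinol is taken up from its plasma carrier, oxidised to retinal by retinol dehydrogenases, and oxidised once more to retinoic acid by the retinaldehyde dehydrogenases of the Aldh1a family. Binding proteins carry the acid, CYP26 enzymes break it down, and the retinoic acid receptors (RARs) act with retinoid X receptors (RXRs) on target genes. In the kidney the pathway is known for its part in branching of the ureteric bud and in the response of tubules to injury.

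The genes described here are 9 members of this pathway: Stra6, Dhrs3, Aldh1a1, Aldh1a2, Aldh1a3, Aldh1a7, Crabp2, Cyp26b1 and Rarb. They were matched by symbol to the 48526 genes of the count tables, and all 9 passed the filter on low counts. They were put forward with their levels in KO and WT libraries already known, so their own differences between the genotypes are given below as a description, with no test. A further list of 65 retinoid genes was written by role, though with earlier results of these data known, and was tested in the same fit.

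RNA was sequenced from primary renal tubular epithelial cells, grown from the kidney cortex of mice aged 4 to 5 weeks in a medium with 20 ng/ml EGF and 100 nM hydrocortisone; the labels name no retinoid among the supplements. The 3 KO libraries came from Setd2(F/F)Ksp-Cre+ mice, in which the promoter of the tubule gene Cdh16 drives Cre, and the 3 WT libraries from Setd2(F/F) littermates. Both groups thus carried floxed alleles of Setd2, the gene of the methyltransferase that trimethylates lysine 36 of histone H3. Cre was present in every KO culture and in no WT culture, so Cre and the deletion cannot be told apart. The labels do not say whether replicates came from separate animals, so the p-values measure only how these libraries vary, which may be partly technical.

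Library totals ran from 86078636 to 106974842 counts. Setd2 spanned 152 to 185 CPM (counts relative to the scaled library total) in the WT libraries and 154 to 163 CPM in the KO libraries, with a log2 fold change of -0.08 ± 0.08 (SE) and an edgeR adjusted p of 0.481. The sources used here do not name the floxed exons, so this gene-level value does not check the deletion. Xist, the RNA that coats the inactive X chromosome, reached 507 and 606 CPM in KO replicates 2 and 3 and at most 0.683 CPM in the other 4 libraries, so genotype and sex partly coincide, and values without those 2 libraries are given for the 9 genes, for the called genes of the wider list and for the marker lists. All 10 tubule epithelium markers listed were tested, and their summed level was 6467 to 7505 CPM in WT and 7428 to 7500 CPM in KO. Umod, a marker of the thick ascending limb, was at under 1 CPM in every library. Of the 10, 3 had an edgeR adjusted p below 0.05, all higher in KO: Cdh16 (0.0366), Pax2 (0.0198) and Lrp2 (0.0144). That is 30%, beside 21.0% of all tested genes. Krt8 and Krt18, which made up much of the sum, were not among them.

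Promoter sequences are shown first for 2 genes whose start sites carry the kind of element that RAR and RXR pairs bind, Rarb among the 9 and Cyp26a1 from the wider list, and both genes are known for being induced by retinoic acid. Windows came from RefSeq (GRCm38.p6), which matched 7 of the 9 genes and 53 of the 74 genes of both lists together. They were searched on both strands for a direct repeat of the hexamer AGGTCA with 1, 2 or 5 bases between its copies, where G was also accepted as the opening letter of a copy and T as the letter before its closing TCA. The 250 bases before each start site are given 5′ to 3′ on the strand of the gene, with the repeat spaced by 5 bases in capitals.
Rarb, chr14:16575477-16575726, minus strand: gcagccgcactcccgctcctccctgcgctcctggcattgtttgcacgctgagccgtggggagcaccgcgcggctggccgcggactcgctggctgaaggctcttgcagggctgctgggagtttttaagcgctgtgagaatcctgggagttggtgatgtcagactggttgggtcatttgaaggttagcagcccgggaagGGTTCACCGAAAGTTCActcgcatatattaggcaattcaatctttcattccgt
Cyp26a1, chr19:37697558-37697807, plus strand: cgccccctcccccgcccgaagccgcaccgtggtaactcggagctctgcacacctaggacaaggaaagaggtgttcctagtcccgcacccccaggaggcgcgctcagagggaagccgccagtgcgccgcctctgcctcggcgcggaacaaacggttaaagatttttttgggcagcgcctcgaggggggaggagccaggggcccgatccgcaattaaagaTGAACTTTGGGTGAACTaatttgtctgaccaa

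In Rarb the repeat lay on the strand of the gene, at positions -53 to -37 counted from the start site, and in Cyp26a1 it lay on the opposite strand, at -32 to -16. A repeat spaced by 5 bases was present in 32 of 32851 RefSeq promoter windows, 0.0974% of them. Repeats spaced by 1 base were in 0.222% and by 2 bases in 0.268% of windows. In the retinoid genes the only other match was in Bco1, spaced by 1 base. None of the 3 matches overlapped another. The other 6 members with a window had no match in it, which says only that these letters are not in that window. Aldh1a3 and Crabp2 had no window and were not searched.

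A second pair of sequences shows how alike Aldh1a1 and Aldh1a7 are. The 100 bases before the start site are given for both, from RefSeq (GRCm38.p6), 5′ to 3′ on the strand of each gene, with the bases that differ in capitals. For Aldh1a1 the start site used was the one whose window best matched that of Aldh1a7, so the likeness of the windows was partly chosen.
Aldh1a1, chr19:20601868-20601967, plus strand: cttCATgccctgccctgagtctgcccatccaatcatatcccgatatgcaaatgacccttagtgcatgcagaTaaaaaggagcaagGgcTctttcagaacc
Aldh1a7, chr19:20727557-20727656, minus strand: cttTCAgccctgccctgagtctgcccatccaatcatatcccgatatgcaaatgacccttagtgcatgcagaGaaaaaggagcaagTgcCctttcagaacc

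The windows differed at 6 of 100 bases. The transcripts of the pair were 89.6% identical over 2050 aligned bases, against 64.4% to 66.4% for the other 5 pairs among Aldh1a1, Aldh1a2, Aldh1a3 and Aldh1a7. Of the stretches of 50 bases in Aldh1a7 transcripts, 7.49% also occurred in Aldh1a1, so reads there may have been dropped or split between the pair.

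**Figure D1:**
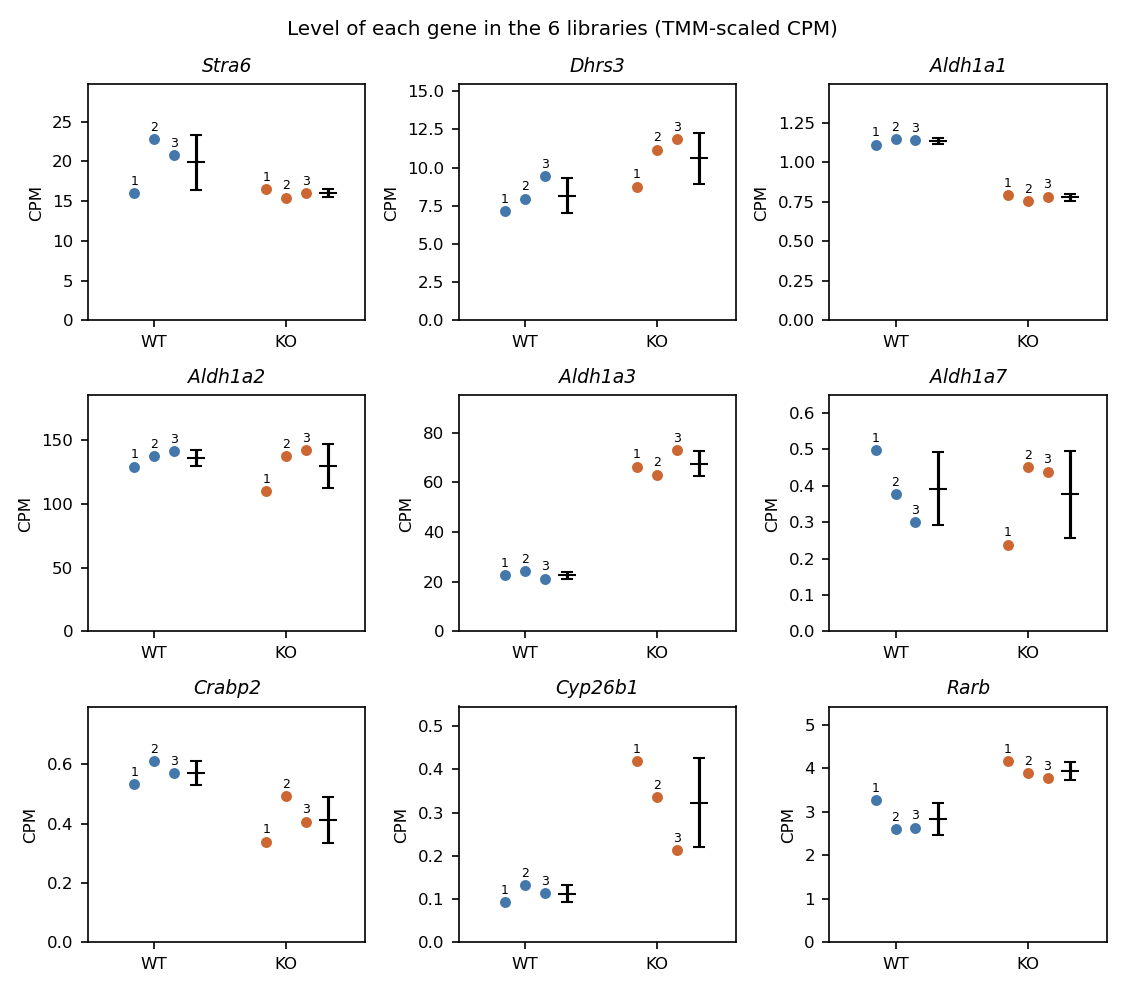
Each panel shows 1 gene, with CPM on a linear axis from 0, the 3 WT libraries in blue and the 3 KO libraries in orange, numbered by replicate; the black mark and bar give the mean and SD of each group. Aldh1a3 stood at 63.2 to 73.1 CPM in KO and 21.3 to 24.1 CPM in WT, and Aldh1a2 overlapped between the groups.

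Uptake and the retinol end of the pathway showed the smallest shifts among genes above 1 CPM, apart from Aldh1a2. Stra6 (ENSMUSG00000032327, mm10 chromosome 9, 58063788 to 58153996), the membrane receptor that takes up retinol from its plasma carrier, was at 16.0, 22.8 and 20.7 CPM for WT replicates 1 to 3 and 16.5, 15.4 and 16.0 CPM for KO replicates 1 to 3. WT replicates 2 and 3 lay above all KO libraries and WT replicate 1 within them. The log2 fold change was -0.31 ± 0.12 (SE). Dhrs3 (ENSMUSG00000066026, chromosome 4, 144892827 to 144928209), which reduces retinal back to retinol, was at 7.13, 7.96 and 9.42 CPM in WT and 8.74, 11.2 and 11.9 CPM in KO. KO replicate 1 lay inside the WT range and the other KO libraries above it. Its log2 fold change of 0.37 ± 0.14 became 0.10 when KO replicates 2 and 3, the libraries with Xist, were left out.

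Aldh1a3 stood higher in every KO library than in any WT library. Aldh1a3 (ENSMUSG00000015134, chromosome 7, 66390890 to 66427517) encodes a retinaldehyde dehydrogenase, an enzyme of the final step to retinoic acid. It was at 22.6, 24.1 and 21.3 CPM in WT and 66.3, 63.2 and 73.1 CPM in KO, or 22.7 ± 1.43 and 67.5 ± 5.06 CPM (mean ± SD, n = 3 each). KO replicate 1, without Xist, stood between the other KO libraries. The log2 fold change was 1.57 ± 0.09, a 2.98-fold difference, and it ran from 1.51 to 1.62 over 16 other ways of processing.

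Aldh1a2, the most abundant member, did not separate the genotypes. Aldh1a2 (ENSMUSG00000013584, chromosome 9, 71215789 to 71296243), the retinaldehyde dehydrogenase that makes most retinoic acid in the embryo, was at 129, 137 and 141 CPM in WT and 109.9, 137 and 142 CPM in KO. KO replicate 1 was the lowest of the 6 libraries and KO replicate 3 the highest. The log2 fold change was -0.07 ± 0.10, and it was 0.06 without KO replicate 1 and -0.31 without KO replicates 2 and 3.

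The other pair of Aldh1a genes was near the bottom of the range. Aldh1a1 (ENSMUSG00000053279, chromosome 19, 20492715 to 20643465), known as the retinaldehyde dehydrogenase of many adult epithelia, was at 1.11, 1.15 and 1.14 CPM in WT and 0.794, 0.756 and 0.784 CPM in KO. These rest on 96 to 122 counts per library in WT and 70 to 77 in KO, and the groups did not overlap. The log2 fold change was -0.54 ± 0.17. Aldh1a7 (ENSMUSG00000024747, chromosome 19, 20692953 to 20727562), the near neighbour and close copy of Aldh1a1, was at 0.498, 0.377 and 0.300 CPM in WT and 0.238, 0.452 and 0.438 CPM in KO, from 21 to 43 counts per library. The groups overlapped, with KO replicate 1 the lowest of the 6 libraries, and the log2 fold change was -0.05 ± 0.31.

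Levels of different genes can be set side by side only per length, for which TPM (counts scaled by exon-union length and library) was used. By mean TPM in WT the order was Aldh1a2 (225), Aldh1a3 (18.4), Stra6 (12.8), Dhrs3 (10.5), Rarb (2.03), Crabp2 (1.62), Aldh1a1 (0.862), Aldh1a7 (0.714) and Cyp26b1 (0.0790). Stra6 stood above Dhrs3 in each WT library (10.6 against 9.37, 14.5 against 10.1 and 13.2 against 12.0 TPM for replicates 1 to 3), though their ranges overlapped. Aldh1a1 and Aldh1a7 overlapped in TPM and changed places between WT libraries, so that pair is not ordered beyond its spread. In KO, Dhrs3 (13.3 TPM) stood above Stra6 (10.03 TPM) in every library, and Aldh1a7 and Aldh1a1 again overlapped. The place of Aldh1a1 depends on the length used. Its exon union was 4937 bases and its aligned transcript 2053 bases, against 2066 bases for both in Aldh1a7. In counts Aldh1a1 (70 to 122) stood above Aldh1a7 (21 to 43) in every library.

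Within the Aldh1a family the make-up of the transcripts differed between the groups. Aldh1a3 held 7.85%, 7.88% and 6.85% of the summed TPM of Aldh1a1, Aldh1a2, Aldh1a3 and Aldh1a7 in WT replicates 1 to 3 and 22.7%, 18.3% and 20.1% in KO replicates 1 to 3. Its share was thus above all WT libraries in every KO library, in a ratio that follows from the levels already given. Aldh1a2 held 91.8% ± 0.661 in WT and 79.2% ± 2.18 in KO (SD, n = 3 each) and remained the main family member in all 6 libraries. The summed TPM itself was 245 ± 5.22 in WT and 265 ± 34.4 in KO, with KO replicate 1 the lowest library and KO replicates 2 and 3 the highest. Aldh1a3 shares of 9.80% in WT and 25.5% in KO were found with the longest annotated transcript as the length.

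**Figure D2:**
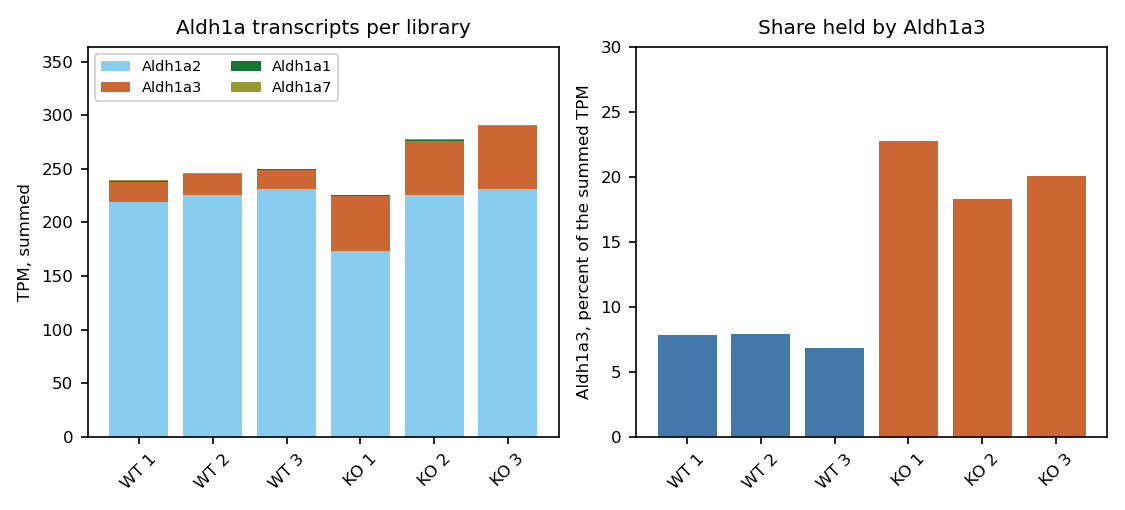
Left, the TPM of the 4 Aldh1a genes stacked for each library; right, the percentage of that sum held by Aldh1a3, with WT in blue and KO in orange. Aldh1a3 held 6.85% to 7.88% of the sum in WT libraries and 18.3% to 22.7% in KO libraries, while Aldh1a2 made up most of each bar.

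Binding and breakdown genes were at low counts. Crabp2 (ENSMUSG00000004885, chromosome 3, 87948666 to 87953376), the binding protein that hands retinoic acid to its receptors, was at 0.533, 0.612 and 0.570 CPM in WT and 0.340, 0.494 and 0.407 CPM in KO, from 30 to 65 counts per library. All KO libraries lay below all WT libraries by a narrow margin, and the log2 fold change was -0.46 ± 0.23. Cyp26b1 (ENSMUSG00000063415, chromosome 6, 84571414 to 84593908), an enzyme that breaks retinoic acid down, had 8, 14 and 11 counts in WT and 37, 32 and 21 counts in KO. That is 0.0926, 0.132 and 0.114 CPM in WT and 0.420, 0.336 and 0.214 CPM in KO, so the groups did not overlap at this depth. The log2 fold change was 1.49 ± 0.35, and 1.28 without KO replicate 1, where the level was highest.

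Rarb was the receptor gene among the 9. Rarb (ENSMUSG00000017491, chromosome 14, 16430839 to 16819156) encodes retinoic acid receptor beta, whose own transcription is known to be induced by retinoic acid. It was at 3.27, 2.61 and 2.64 CPM in WT and 4.17, 3.89 and 3.78 CPM in KO, and every KO library lay above every WT library. The log2 fold change was 0.48 ± 0.14, and it ran from 0.42 to 0.60 over 16 alternatives. Of the exon length of Rarb, 34.1% overlaps Top2b, which is transcribed from the other strand, and no source used here gives the strand setting of the counting, so reads of both genes may be mixed there. Top2b was at 149 to 202 CPM in WT and 149 to 159 CPM in KO (log2 fold change -0.20 ± 0.10), and its part in the Rarb counts was not tested.

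Across the 9 genes, 5 had groups that did not overlap in CPM: Aldh1a3, Rarb and Cyp26b1 with KO above, and Aldh1a1 and Crabp2 with KO below. Among all 17571 tested genes the share without overlap was 41.9%, and nothing is read from the 5 because the genes were chosen with these values known. The median log2 fold change of the 9 was -0.05, beside -0.01 over all tested genes. KO replicate 1 was the lowest of the 6 libraries in Aldh1a2, Aldh1a7 and Crabp2 and the highest in Rarb and Cyp26b1. Without the libraries with Xist, which leaves KO replicate 1 against WT, the log2 fold changes were -0.71 for Aldh1a7, -0.75 for Crabp2 and 1.87 for Cyp26b1. In that setting Aldh1a3 was at 1.55, Rarb at 0.56, Stra6 at -0.27 and Aldh1a1 at -0.51, each with the sign it had over all libraries.

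**Figure D3:**
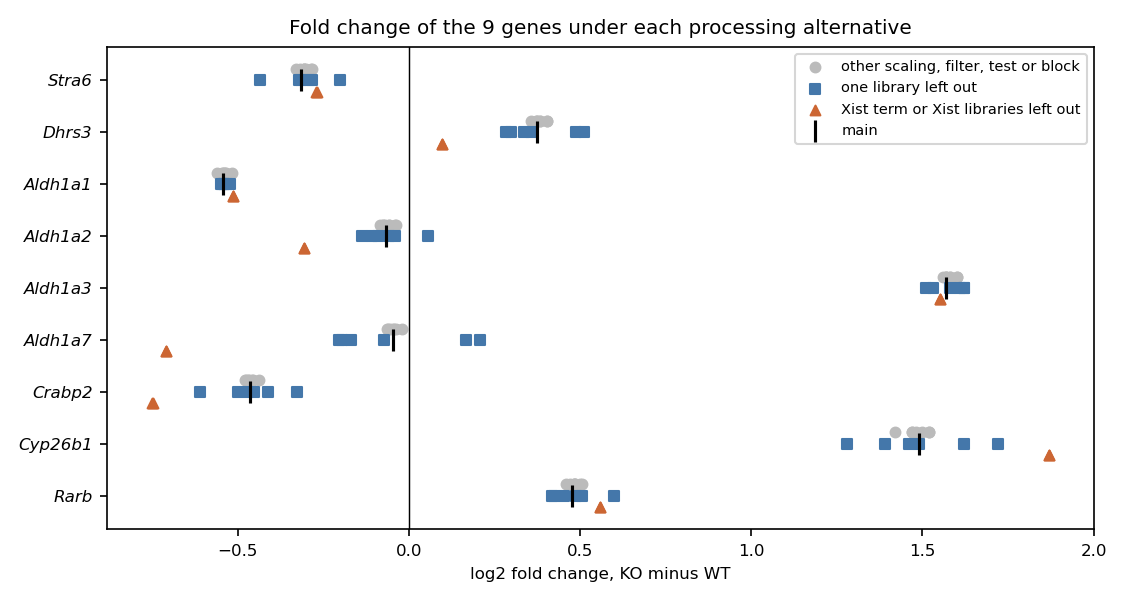
Log2 fold change (KO minus WT, horizontal axis) of each of the 9 genes under each processing alternative; the black line is the value in the text, grey circles other scalings, filters, tests and the replicate block, blue squares 1 library left out, and orange triangles a term for the libraries with Xist or their omission. Aldh1a3 stayed between 1.51 and 1.62, and Aldh1a2 and Aldh1a7 were found on both sides of 0.

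In the wider list, 14 of the 40 tested genes changed, 9 higher and 5 lower in KO, where 21.0% of all 17571 tested genes did so (12.0% higher and 9.08% lower). The 40 had a median log2 fold change of 0.12, and the other 25 of the 65 were below the filter, at no more than 0.166 CPM in any library. A gene was called where its Benjamini-Hochberg adjusted p from the edgeR fit was below 0.05. The number rested on single libraries: 7 genes were called without KO replicate 1, all of them higher in KO, and 9 without KO replicate 3 or WT replicate 2, 7 higher and 2 lower each time. With a term for the libraries with Xist, or without those libraries, 1 gene was called, which was Ret. Without those libraries the log2 fold changes were 1.56 for Adh7, 1.55 for Bco1, 0.825 for Rdh5, 0.72 for Ret, 0.62 for Rdh12, 0.57 for Lrp2 and 0.39 for Gprc5a. They were -0.235 for Rdh10, -0.31 for Rdh13, -0.34 for Dgat1, -0.36 for Fabp5 and -0.43 for Btg2, so each of these genes had the same sign as over all libraries.

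Enzymes that interconvert retinol and retinal included genes called in both directions, with 3 of 11 tested genes higher and 2 lower, and both lower calls depended on single libraries. The calls made up 45.5% of these enzymes, beside 21.0% of all tested genes. Rdh10, the main retinol dehydrogenase of the embryo, fell from 191, 183 and 193 CPM in WT to 161, 164 and 157 CPM in KO (log2 fold change -0.23 ± 0.07, edgeR adjusted p = 0.0293). That call was lost without WT replicate 2 (adjusted p = 0.0553) and without KO replicate 1 (0.136), 2 (0.0732) or 3 (0.112). Rdh13, a mitochondrial retinal reductase, fell by 0.30 on the log2 scale (edgeR adjusted p = 0.0377), but the call was lost in 9 of 16 alternatives. Among them were the fits that left out any 1 library other than WT replicate 1, with adjusted p-values from 0.0533 to 0.141. Rdh5, which oxidises 11-cis retinol in the eye, rose 1.87-fold from 0.870 ± 0.0514 CPM (log2 fold change 0.90 ± 0.17, adjusted p = 0.00393), and Rdh12 rose 1.49-fold. Adh7, an alcohol dehydrogenase that oxidises retinol, was at 0.104, 0.113 and 0.114 CPM in WT and 0.329, 6.86 and 0.173 CPM in KO. Its call rested on KO replicate 2, and without that library the log2 fold change was 1.16 in place of 4.46, with an edgeR adjusted p of 0.0844. The Adh7 call was also lost without WT replicate 2 (adjusted p = 0.0708), without WT replicate 3 (0.0528) and with limma-voom (0.196). Rdh11, a retinal reductase and the most abundant of these enzymes per length, averaged 216 ± 11.7 CPM in WT against 196 ± 13.6 CPM in KO (adjusted p = 0.219).

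Among genes of vitamin A supply and transport, Bco1 and Lrp2 rose and Dgat1 fell. Bco1, which cleaves beta-carotene to retinal, rose from 0.591, 0.207 and 0.321 CPM in WT to 1.08, 0.893 and 1.61 CPM in KO (log2 fold change 1.70 ± 0.35, edgeR adjusted p = 0.00654). Lrp2, the megalin receptor by which proximal tubules take up filtered retinol-binding protein, rose 1.73-fold from 10.04 ± 3.24 CPM (edgeR adjusted p = 0.0144), a call lost without KO replicate 3 (0.0609). Lrp2 also stands in the list of tubule epithelium markers used here. Dgat1, an acyltransferase that can esterify retinol, fell by 0.33 on the log2 scale (edgeR adjusted p = 0.0352), and its call was lost in 8 of 16 alternatives, among them the fits without any 1 library other than WT replicate 1 (adjusted p from 0.052 to 0.135). Cubn, the partner of megalin, was at 8.29 ± 0.550 and 7.16 ± 0.201 CPM (adjusted p = 0.156).

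For retinoic acid itself, Fabp5 was the called gene of binding and breakdown. Fabp5, a fatty acid binding protein that also carries retinoic acid, fell from 109, 106 and 107 CPM in WT to 83.5, 91.4 and 72.2 CPM in KO (log2 fold change -0.38 ± 0.09, edgeR adjusted p = 0.0107). All KO libraries lay below all WT libraries, and the call was lost without KO replicate 1 (adjusted p = 0.0565) or KO replicate 3 (0.0541). Cyp26a1, whose promoter is printed above, was at 0.382, 0.329 and 0.497 CPM in WT and 0.249, 0.294 and 0.316 CPM in KO, from 22 to 48 counts per library. Its log2 fold change of -0.49 ± 0.27 did not pass the test (adjusted p = 0.219). The log2 fold changes of Rarb and Cyp26a1, which both hold the 5-base spaced repeat, thus had opposite signs, the former with no test and the latter not called.

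None of the 4 tested receptor genes outside the 9 passed the test: Rara, Rarg, Rxra and Rxrb had log2 fold changes from -0.12 to 0.32 and edgeR adjusted p-values from 0.125 to 0.599. Rxra and Rarg overlapped in TPM and are not ordered beyond their spread. Rxra averaged 47.6 ± 5.95 CPM in WT against 51.8 ± 1.88 CPM in KO. Among the coregulators, Ncor1, a corepressor of receptors without ligand, averaged 250.001 ± 24.04 CPM in WT against 266 ± 6.03 CPM in KO (edgeR adjusted p = 0.465).

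Among 11 tested genes known to be induced by retinoic acid and not otherwise listed, 2 were higher and 1 lower. That is 27.3% of the 11, beside 21.0% of all tested genes. Gprc5a, an orphan receptor first found through its induction by retinoic acid, rose 1.24-fold from 388 ± 37.1 CPM (log2 fold change 0.31 ± 0.09, edgeR adjusted p = 0.0262). That call was lost without WT replicate 2 (adjusted p = 0.0675) and without KO replicate 1 (0.104), 2 (0.0548) or 3 (0.0551). Ret, the receptor of GDNF in the ureteric bud, rose from 5.41, 5.80 and 5.31 CPM in WT to 9.11, 7.04 and 6.68 CPM in KO (log2 fold change 0.46 ± 0.13, adjusted p = 0.0280). KO replicate 1 held the highest Ret level, and without it the log2 fold change was 0.33 with an edgeR adjusted p of 0.122. The call was also lost without WT replicate 2 (adjusted p = 0.0553) and without WT replicate 3 (adjusted p = 0.0560). Btg2, an antiproliferative gene, fell by 0.38 on the log2 scale (edgeR adjusted p = 0.00943), a call lost without KO replicate 1 (0.0693). Tgm2, transglutaminase 2, was at 78.3 ± 10.2 and 94.8 ± 7.78 CPM (adjusted p = 0.0695), and the 5 tested Hox genes had log2 fold changes from -0.24 to 0.29 with none called.

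**Figure D4:**
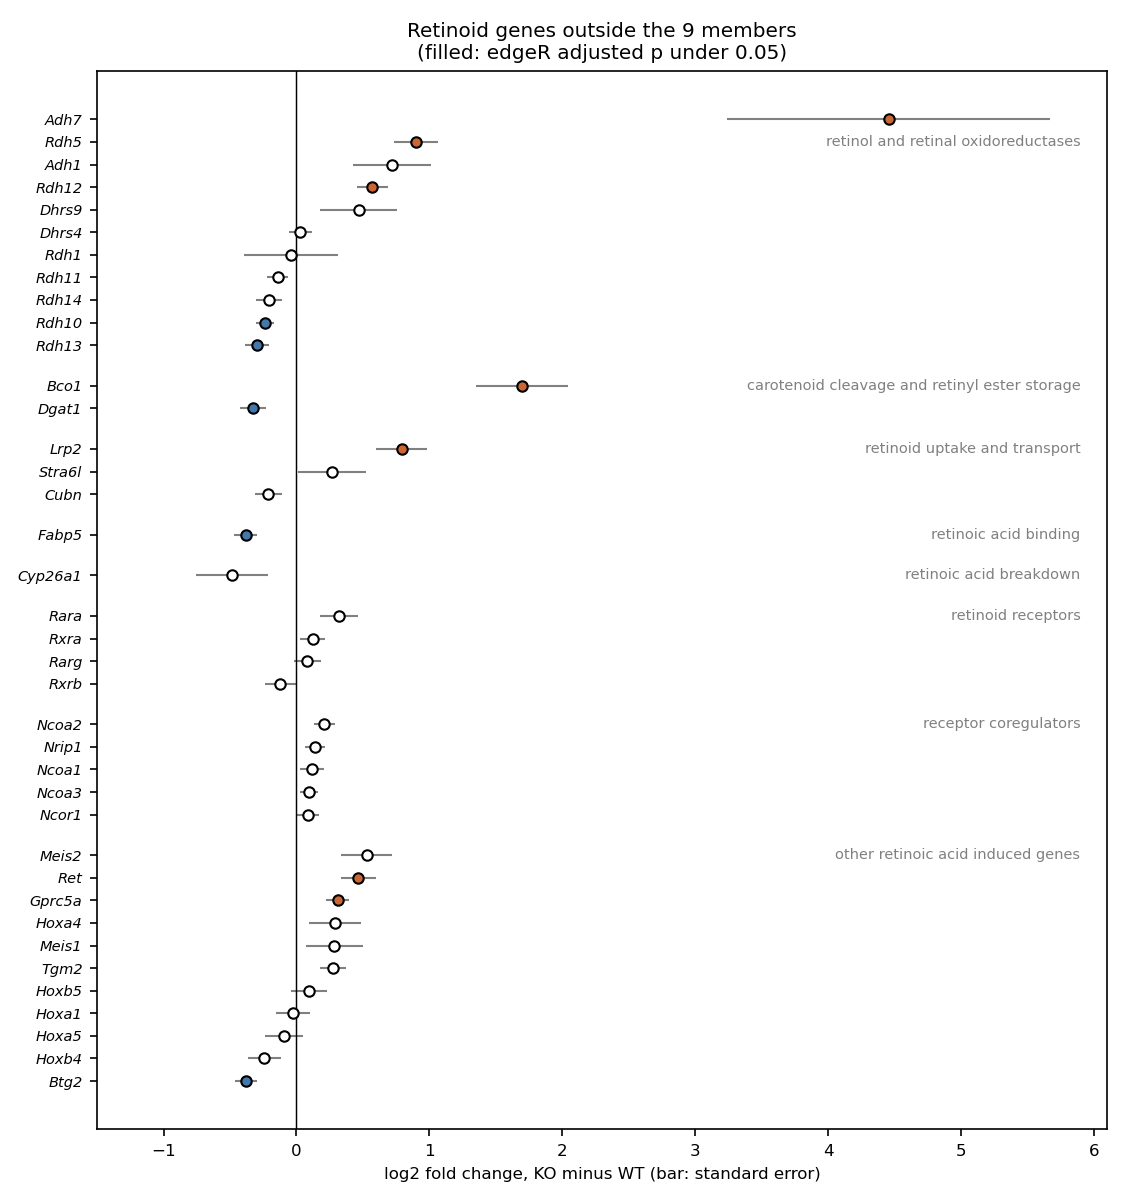
Log2 fold change (KO minus WT, horizontal axis, bars are standard errors) of 38 of the 40 tested retinoid genes outside the 9, grouped by role; orange marks genes called higher, blue genes called lower and white genes not called by edgeR. Calls lie on both sides of 0 in the oxidoreductases, the 4 receptor genes are white, and Adh7 stands apart at 4.46 with a wide error.

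Besides the tubule markers given above, markers of other cells moved in the same libraries. In bulk RNA a change in the number of cells of a type and a change in RNA per cell cannot be told apart. Among all 17571 tested genes, 21.0% were called, 12.0% higher and 9.08% lower, and 41.9% had groups that did not overlap in CPM. Summed over each list, endothelial markers were at 13.1 to 15.7 CPM in WT and 21.3 to 29.3 CPM in KO (4 of 6 called, all higher), podocyte markers at 94.1 to 96.6 and 152 to 186 CPM (4 of 6, all higher), and leukocyte markers at 27.8 to 32.3 and 41.3 to 49.8 CPM (3 of 6, all higher). Fibroblast and pericyte markers were at 61.3 to 84.7 CPM in WT and 65.1 to 120.01 CPM in KO, with 4 of 6 tested markers higher and Dcn and Lum, defining fibroblast genes, at no more than 0.159 CPM. Mesothelial markers, listed because mesothelium is known to express Aldh1a2, were at 873 to 1031 CPM in WT and 803 to 899.6 CPM in KO, and 3 of 4 tested markers were called, in both directions. Msln fell from 493 ± 20.6 to 384 ± 45.004 CPM and Upk3b from 6.099 ± 0.0237 to 3.85 ± 0.289 CPM. Muc16 rose from 6.74 ± 0.980 to 16.7 ± 4.56 CPM, and Lrrn4 was at no more than 0.0116 CPM. Krt19 made up much of the mesothelial sum, with means of 459 ± 80.1 CPM (WT) and 459 ± 17.0 CPM (KO). Krt19 was the tested marker not called (edgeR adjusted p = 0.996). Most of the fibroblast and pericyte sum was Acta2, with means of 52.8 ± 9.36 CPM (WT) and 56.3 ± 18.1 CPM (KO). Acta2 was not called either (edgeR adjusted p = 0.772). Urothelial markers were at 224 to 243 CPM in WT and 307 to 318 CPM in KO with no overlap, nearly all of it Krt20, which rose from 234 ± 9.73 to 312 ± 5.69 CPM (edgeR adjusted p = 0.00237). Of the same list, Upk1b and Upk3a were at no more than 0.0611 CPM. In KO replicate 1, without Xist, the sums were 29.3 CPM for endothelial, 160.003 for podocyte, 49.8 for leukocyte, 100.5 for fibroblast and pericyte, 318 for urothelial and 899.6 for mesothelial markers. Without the libraries with Xist, the median log2 fold change of the tested markers was 1.36 for endothelium and 0.834 for fibroblasts and pericytes. It was 0.598 for leukocyte, 0.502 for podocyte and 0.436 for urothelial markers, 0.177 for tubule epithelium and -0.125 for mesothelium. The part of these cells in the levels of the retinoid genes was not tested.

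By the Pearson correlation of log2 CPM over the 6 libraries, the genes most like Aldh1a3 among 11686 with a mean of at least 1 CPM were Ifi202b (0.9997), Apbb1ip (0.997), Rusc1 (0.9968), St6gal1 (0.9967) and Pgm2 (0.9963). All 5 were higher in KO on average, with log2 fold changes from 0.28 (St6gal1) to 2.08 (Apbb1ip), and 30 genes had a correlation of at least 0.99. These values are largely set by the gap between the groups, which the libraries share. Over deviations from the group means, the 3 genes most like Aldh1a3 were Arhgap17 (0.9938), Hoxb7 (0.9922) and Gxylt2 (0.9854), with log2 fold changes from -0.10 to 0.09. They are the highest of 11686 genes over 6 libraries with the group means removed. Correlations this high can arise from such a search alone, so nothing is read from them.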

How the data were processed

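The authors deposited 1 table of raw, whole-number counts of reads by Ensembl gene for each of 6 libraries. Trimmomatic 0.38, STAR 2.7.1a, HTSeq 0.11.2 and mm10 are named per the submitters' processing notes; the sources used here give neither their roles nor the strand setting or annotation release. GENCODE M21 (GRCm38, the assembly of mm10) gave symbols, positions and exon-union lengths for 48144 of 48526 genes; the rest held 0.0165% of counts. Counts were filtered with filterByExpr (17571 genes kept), scaled with TMM and tested with edgeR 4.0.16 in R 4.3.3 by a quasi-likelihood fit with genotype as its term, adjusted by Benjamini-Hochberg over all tested genes at 0.05. The size of each log2 fold change divided by the square root of its F statistic gave its standard error. At this depth counting limits genes below about 1 CPM. The 9 members and all lists were chosen with earlier results of these data known. Named are all 9 members, every called gene of the wider list, except 2 counted but not reported here, and the most abundant uncalled gene of each role; the other receptors and the Hox genes were summarised after their values were seen. Likeness used log2 CPM with a prior count of 2. Alternatives were the replicate block, other scalings, filters, DESeq2 1.42.0, limma-voom (limma 3.58.1), leaving out each library, and a term for, or omission of, libraries with Xist above 10 CPM; for the marker lists the last was added after seeing the data. The tests were also tried on simulated counts. Transcripts were aligned with Biopython 1.88 and figures drawn with matplotlib 3.10.9.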

Additional observations from a re-analysis of the deposited data

How the results depend on the processing

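The labels give both groups the same replicate numbers, but same-numbered libraries did not deviate together (correlations of their deviations from the group means of 0.0417, -0.146 and 0.0324), so the numbers were not taken to pair the libraries; with the replicate block 3594 genes of all and 15 of the wider retinoid list were called, against 3698 and 14. Over all genes, leaving out 1 library at a time gave 1683 to 3766 calls, and over the wider list 7 to 15. With the term for libraries with Xist 1163 genes of all and 1 of the list were called, and without those libraries 907 and 1; by construction these fits set 1 KO library, whose spread is assumed to equal that of WT, against WT and have fewer residual degrees of freedom. The Aldh1a3 share of the Aldh1a sum was 9.80% in WT and 25.5% in KO with the longest transcript as length, and 14.2% and 34.2% from counts with no length scaling, which favours long transcripts. The other scalings, filters and tools kept both counts within 1.5 times of the values in the report, and no called gene of the wider list changed sign. Genes under about 1 CPM, Cyp26b1, Aldh1a7, Crabp2 and Cyp26a1 among them, rest on 8 to 65 counts per library, so small differences in them were not detectable at this depth.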
